A study of Rattus norvegicus with 12 samples.

Results

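The 5 cell cycle genes Mki67, Top2a, Cdk1, Pcna and Ccnd1 were followed in cultured fibro-adipogenic progenitors of rat soleus muscle. They were chosen by name, as 5 of the 32622 Ensembl identifiers of the count table, and all 5 were among the 13215 genes tested. The selection rule pairs Mki67 with ENSRNOG00000028137, Top2a with ENSRNOG00000053047, Cdk1 with ENSRNOG00000000632, Pcna with ENSRNOG00000021264 and Ccnd1 with ENSRNOG00000020918. The count table itself holds no gene names and no coordinates, so these pairs were not checked against a second source.

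Fibro-adipogenic progenitors are mesenchymal cells of skeletal muscle that can become fat cells or fibroblasts. The primary cultures (Rattus norvegicus) came from control rats, from rats after 7 days of hindlimb suspension and from rats after 14 days of it, called control, 7-day and 14-day cells below. In hindlimb suspension the hind legs bear no weight, so the soleus is unloaded. Each was sampled subconfluent at day 0 and at day 3 in a medium with insulin, dexamethasone and 3-isobutyl-1-methylxanthine, which induces fat cell formation, which gives 6 groups of 2 libraries. Strain, sex and age of the rats, and whether the libraries of a group came from separate animals or cultures, are not stated in the labels. A p-value below thus rests on how far these libraries scatter, and that scatter may be technical only. The labelled cell type was not checked against its markers, because the identifiers of marker genes could not be paired with names. There was no uninduced group at day 3, and the effect of induction cannot be told apart from that of the added days in culture. Cell numbers at harvest are not stated either, nor is density beyond the word subconfluent.

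A dividing cell passes from G1 through DNA synthesis (S phase) and G2 to mitosis, and many of the genes that run these steps are transcribed mainly in their own phase. Cyclin D1, the product of Ccnd1, is the cyclin that growth signals raise in G1; with its kinases Cdk4 and Cdk6 it starts the phosphorylation of the retinoblastoma protein that frees E2F factors. Pcna is the sliding clamp that holds DNA polymerase on the template and also serves in DNA repair. Top2a untangles DNA strands during replication and chromosome segregation, Cdk1 is the kinase that drives entry into mitosis, and Mki67 coats mitotic chromosomes and is the usual marker of cycling cells. Progenitors in culture divide, and differentiation into fat cells is generally accompanied by exit from the cycle, after a limited phase of division in some culture systems.

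The promoters of the genes are shown as a description, and whether their letters relate to the RNA levels was not tested. RefSeq (build GRCr8, not the build of the counts) gave a window of 250 bases before to 50 bases after the annotated start for 4 of the 5 members. Ccnd1 had no entry. Capitals mark the letters TTTGAA or TTCGAA, the core of the element known as the cell cycle genes homology region, and CCAAT, the box bound by NF-Y, each on either strand. Both are known from promoters of genes expressed in G2 and mitosis. In Mki67 the second TTTGAA and a CCAAT on the other strand overlap in 1 run.

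Mki67 (chr1:199952544-199952843, minus strand): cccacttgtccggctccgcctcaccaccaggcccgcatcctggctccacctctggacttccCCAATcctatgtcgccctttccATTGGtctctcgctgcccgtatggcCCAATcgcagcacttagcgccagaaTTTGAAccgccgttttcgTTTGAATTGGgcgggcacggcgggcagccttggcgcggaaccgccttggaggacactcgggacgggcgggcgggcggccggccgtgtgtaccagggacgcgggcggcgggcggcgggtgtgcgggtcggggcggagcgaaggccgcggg
Top2a (chr10:84473044-84473343, minus strand): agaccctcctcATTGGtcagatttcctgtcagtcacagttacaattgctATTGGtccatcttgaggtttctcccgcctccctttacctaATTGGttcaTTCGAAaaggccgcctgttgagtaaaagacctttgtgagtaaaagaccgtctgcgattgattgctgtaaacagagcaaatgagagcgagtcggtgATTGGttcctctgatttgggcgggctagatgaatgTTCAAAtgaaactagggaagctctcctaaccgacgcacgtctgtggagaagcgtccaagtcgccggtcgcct
Cdk1 (chr20:19265043-19265342, plus strand): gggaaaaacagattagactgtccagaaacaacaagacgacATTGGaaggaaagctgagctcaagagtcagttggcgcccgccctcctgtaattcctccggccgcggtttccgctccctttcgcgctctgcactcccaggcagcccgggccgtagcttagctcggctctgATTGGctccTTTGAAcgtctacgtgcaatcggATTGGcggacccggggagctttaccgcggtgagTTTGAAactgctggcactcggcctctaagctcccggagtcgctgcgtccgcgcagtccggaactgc
Pcna (chr3:139955771-139956070, minus strand): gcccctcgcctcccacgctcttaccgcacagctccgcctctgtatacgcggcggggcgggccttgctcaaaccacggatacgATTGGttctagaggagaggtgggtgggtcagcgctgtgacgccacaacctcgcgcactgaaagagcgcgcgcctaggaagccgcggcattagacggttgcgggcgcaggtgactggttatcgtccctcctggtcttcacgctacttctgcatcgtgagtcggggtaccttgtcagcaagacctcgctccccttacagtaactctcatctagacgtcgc

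Mki67 held TTTGAA at 2 places, 117 and 99 bases before the start, and CCAAT at 4. Top2a held TTTGAA at 1 place, 22 bases before the start, TTCGAA at 1, 152 bases before it, and CCAAT at 4. Cdk1 held TTTGAA at 2 places, 72 and 16 bases before the start, and CCAAT at 3. The Pcna window held 1 CCAAT and neither TTTGAA nor TTCGAA. Of 33469 rat promoter windows of the same length, 18.3% held TTTGAA, 1.69% TTCGAA and 37.5% CCAAT, and 7.95% held CCAAT together with TTTGAA or TTCGAA. An E2F-like word (TTTCCCGC, TTTGGCGC, TTTCGCGC or TTTGCCGC, either strand) stood in 2.14% of all windows and, among the 4 members, in Cdk1, 133 bases before the start. These matches describe letters only and are not binding sites shown by the data.

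Levels are given in CPM, a gene's share of its library's counts expressed on a fixed common total, on libraries scaled by TMM, and they are compared between groups for 1 gene, not between genes, since gene length enters a count. Mki67 stood at 75.1 and 70.6 CPM in the 2 control libraries at day 0 and at 71.6 and 59.7 CPM at day 3. In 7-day cells it stood at 104 and 115 CPM at day 0 and at 61.4 and 57.0 CPM at day 3. In 14-day cells the values were 90.6 and 87.7 CPM at day 0 and 42.1 and 42.2 CPM at day 3. Mki67 was thus highest in 7-day cells before induction and lowest in 14-day cells after it, 2.60-fold apart in the group means. In order of their means the groups were 7-day day 0, 14-day day 0, control day 0, control day 3, 7-day day 3 and 14-day day 3. The libraries of control day 0 and control day 3 overlapped, as did those of control day 3 and 7-day day 3, and the other neighbours in this order did not.

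Top2a stood at 80.1 and 92.8 CPM in control cells at day 0 and at 134 and 131 CPM at day 3. In 7-day cells it stood at 157 and 148 CPM at day 0 and at 126 and 120.1 CPM at day 3. In 14-day cells it stood at 103 and 107 CPM at day 0 and at 71.0 and 75.8 CPM at day 3. Control cells were higher at day 3 than at day 0, whereas both kinds of unloaded cells were lower. The order of the group means was 7-day day 0, control day 3, 7-day day 3, 14-day day 0, control day 0 and 14-day day 3, 2.07-fold from first to last, and no neighbouring groups overlapped.

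Cdk1 was measured at 47.1 and 44.7 CPM in control cells at day 0 and at 53.5 and 54.3 CPM at day 3. For 7-day cells the values were 81.1 and 80.3 CPM at day 0 and 55.8 and 54.9 CPM at day 3. For 14-day cells they were 61.9 and 60.0 CPM at day 0 and 28.4 and 29.3 CPM at day 3. Cdk1 had the widest range of the 5 genes, 2.80-fold between 7-day cells at day 0 and 14-day cells at day 3. Between these extremes came 14-day day 0, 7-day day 3, control day 3 and control day 0. No neighbouring groups overlapped, although 7-day and control cells at day 3 differed by only 1.03-fold, which did not pass the test.

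Pcna stood at 56.2 and 63.0 CPM in control cells at day 0 and at 95.5 and 97.5 CPM at day 3. In 7-day cells it was at 80.7 and 73.8 CPM at day 0 and at 96.7 and 88.3 CPM at day 3. In 14-day cells it was at 59.4 and 66.1 CPM at day 0 and at 70.9 and 63.4 CPM at day 3. Pcna had the narrowest range, 1.62-fold, and unlike the other 4 genes it was highest in control cells at day 3 and lowest in control cells at day 0. In between came 7-day day 3, 7-day day 0, 14-day day 3 and 14-day day 0. Libraries of control and 7-day cells at day 3 overlapped, and so did 14-day day 3 with 14-day day 0, and 14-day day 0 with control day 0.

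Ccnd1 stood at 199 and 209.6 CPM in control cells at day 0 and at 98.3 and 114 CPM at day 3. In 7-day cells it was at 139.8 and 142 CPM at day 0 and at 90.6 and 93.8 CPM at day 3. In 14-day cells it was at 113 and 112 CPM at day 0 and at 81.6 and 73.8 CPM at day 3. Both control libraries at day 0 lay above all other libraries, and at each day the order was control, 7-day, 14-day. Over all 6 groups the order was control, 7-day and 14-day cells at day 0 followed by control, 7-day and 14-day cells at day 3, 2.63-fold from first to last. Only 14-day cells at day 0 and control cells at day 3 overlapped among neighbours.

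**Figure D1:**
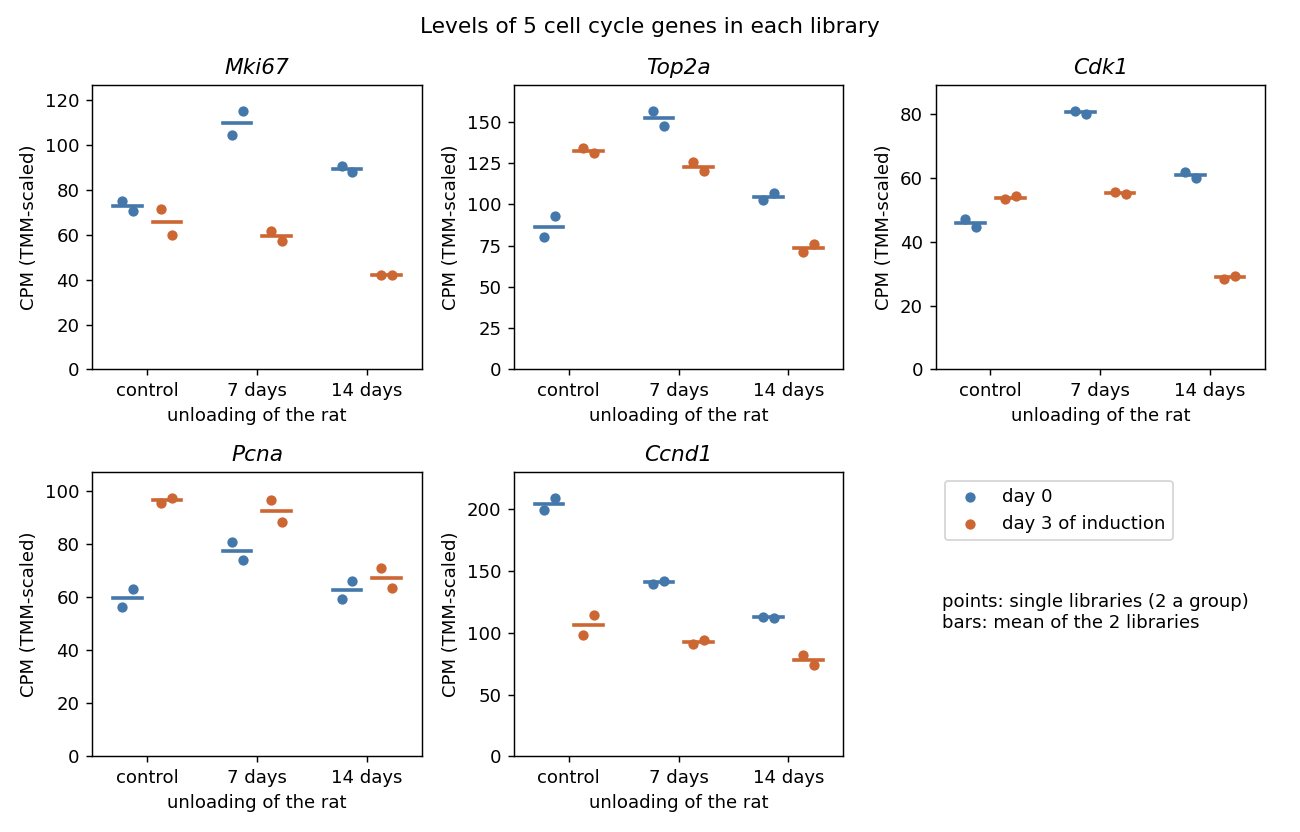
CPM on TMM-scaled libraries (vertical axis, from 0) for each of the 5 genes in control, 7-day and 14-day cells (horizontal axis), with a point per library, a bar for the mean of 2 libraries, day 0 in blue and day 3 of induction in orange. Mki67 and Cdk1 are highest in 7-day cells at day 0 (110 and 80.7 CPM on average), while Ccnd1 is highest in control cells at day 0 (205 CPM).

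The first comparison set control cells at day 3 of induction against control cells at day 0. Pcna rose 1.62-fold and Top2a 1.54-fold, and Ccnd1 fell 1.92-fold. Cdk1 rose 1.17-fold, and Mki67 did not pass the test. In these bulk libraries a different number of cells that express a gene and a different amount of its RNA per cell cannot be told apart, here and in the other comparisons. On the log2 scale the changes were 0.70 for Pcna (SE 0.08, adjusted p = 1.92e-09), 0.62 for Top2a (SE 0.07, adjusted p = 1.28e-09), 0.23 for Cdk1 (SE 0.08, adjusted p = 0.0131) and -0.94 for Ccnd1 (SE 0.07, adjusted p = 1.34e-14). For Mki67 the change was -0.15 (95% interval -0.32 to 0.01, adjusted p = 0.11). Of the 5 genes 3 were called higher, against 25.8% of all tested genes, and 1 lower, against 26.8%. The median of the 5 changes was 0.23, beside 0.00 over all genes tested. The Cdk1 rise did not pass without the second control library at day 0 (0.19) or without the second at day 3 (0.22), and Mki67 passed, at -0.29, without the first control library at day 3 but was at -0.03 without the second.

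In 7-day cells 4 of the 5 genes fell over the same 3 days. Mki67 fell 1.85-fold, Cdk1 1.46-fold, Top2a 1.24-fold and Ccnd1 1.53-fold, and Pcna alone rose, 1.20-fold. The log2 changes were -0.89 for Mki67 (SE 0.08, adjusted p = 4.80e-12), -0.54 for Cdk1 (SE 0.08, adjusted p = 1.52e-07) and -0.31 for Top2a (SE 0.07, adjusted p = 0.000222). They were -0.61 for Ccnd1 (SE 0.07, adjusted p = 1.59e-09) and 0.26 for Pcna (SE 0.08, adjusted p = 0.00565). That makes 4 members called lower, against 26.9% of all genes, and 1 higher, against 24.8%, with a median log2 change of -0.54 beside -0.01 over all genes. The rise of Pcna did not pass without the second 7-day library at day 0 (0.20) or the first at day 3 (0.18).

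In 14-day cells Mki67 and Cdk1 had the largest falls of the 5 genes. Mki67 and Cdk1 both fell 2.11-fold, Top2a fell 1.43-fold and Ccnd1 1.45-fold. Pcna did not pass the test, with a log2 change of 0.10 (95% interval -0.07 to 0.26, adjusted p = 0.315). For Mki67 and Cdk1 the log2 change was -1.08 in each (SE 0.08, adjusted p = 4.31e-14 and 3.39e-14), and for Top2a and Ccnd1 it was -0.51 and -0.53 (SE 0.07 in each, adjusted p = 8.43e-08 and 3.53e-08). The 4 members called lower stand beside 28.1% of all genes called lower, and the median of the 5 was -0.53 beside 0.01 over all genes.

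The next question was how the cells differed before induction. In 7-day cells Top2a, Cdk1, Mki67 and Pcna were higher than in control cells at day 0, and Ccnd1 was lower. Top2a was 1.76-fold higher (log2 difference 0.82, SE 0.07, adjusted p = 8.94e-12), Cdk1 1.76-fold (0.81, SE 0.08, adjusted p = 1.31e-10), Mki67 1.50-fold (0.59, SE 0.08, adjusted p = 2.22e-07) and Pcna 1.30-fold (0.38, SE 0.08, adjusted p = 0.000494). Ccnd1 was 1.45-fold lower (-0.54, SE 0.07, adjusted p = 6.57e-08). Over all genes 11.7% were called higher and 11.3% lower, so that 50.8% of the calls were higher, or 62.8% with scaling to the total count. For none of the 5 genes did the libraries of the 2 groups overlap. How many of all tested genes also showed no overlap was not counted, so this describes the 5 genes only.

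After 14 days of unloading the differences from control cells at day 0 were smaller for Cdk1, Mki67, Top2a and Pcna and larger for Ccnd1. Cdk1 was 1.33-fold higher (log2 difference 0.41, SE 0.08, adjusted p = 0.000105), Mki67 1.22-fold (0.29, SE 0.08, adjusted p = 0.00651) and Top2a 1.21-fold (0.28, SE 0.07, adjusted p = 0.00318). Pcna did not pass (0.08, 95% interval -0.09 to 0.24, adjusted p = 0.608). Ccnd1 was 1.82-fold lower (-0.86, SE 0.07, adjusted p = 7.34e-13), and 5.26% of genes had a lower log2 difference. Beside the 3 members called higher and the 1 called lower, 7.85% of all genes were called higher and 8.89% lower, so that 46.9% of the calls were higher, or 38.1% with scaling to the total count. The Mki67 call was lost without the second control library at day 0 (0.25) or the first 14-day library (0.27), and the Top2a call without the first control library (0.18). The 7-day and 14-day differences share the control libraries.

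Set directly against each other at day 0, 14-day cells were lower than 7-day cells in all 5 genes. Top2a was 1.45-fold lower (log2 difference -0.54, SE 0.07, adjusted p = 2.23e-07), Cdk1 1.32-fold (-0.40, SE 0.07, adjusted p = 0.000154), Ccnd1 1.25-fold (-0.33, SE 0.07, adjusted p = 0.000754), and Mki67 and Pcna 1.23-fold each (-0.30, SE 0.08, adjusted p = 0.00639 and 0.00905). Of all genes 6.26% were called lower, and 46.6% of the calls were higher, or 20.6% with scaling to the total count. Mki67 did not pass without the second 7-day (-0.23) or the second 14-day library (-0.28), nor Pcna without the first 7-day or the first 14-day library (-0.23 in each). The count of calls over all genes went from 1550 to 862 without the first 14-day library and to 887 without the second.

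After 3 days of induction 1 of the 5 genes passed the test between 7-day and control cells. The log2 differences were -0.15 for Mki67 (95% interval -0.31 to 0.02), -0.11 for Top2a (-0.25 to 0.03), 0.04 for Cdk1 (-0.12 to 0.20) and -0.06 for Pcna (-0.22 to 0.10), and none of the 4 passed (adjusted p = 0.278, 0.339, 0.829 and 0.705). Ccnd1 was 1.15-fold lower (-0.21, SE 0.07, adjusted p = 0.0431), the 1 member called lower, where 7.43% of all genes were. That call was lost with scaling to the total count (-0.20), with the replicate block (-0.20) and with DESeq2 (-0.21), and without the second control library at day 3 (-0.09) or either 7-day library (-0.18 without the first, -0.24 without the second).

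All 5 genes were lower in 14-day cells than in control cells once induced (day 3). Cdk1 was 1.87-fold lower (log2 difference -0.90, SE 0.08, adjusted p = 3.46e-11), Top2a 1.81-fold (-0.85, SE 0.07, adjusted p = 2.39e-12), Mki67 1.56-fold (-0.64, SE 0.08, adjusted p = 1.41e-07), Pcna 1.44-fold (-0.52, SE 0.08, adjusted p = 1.84e-06) and Ccnd1 1.37-fold (-0.45, SE 0.07, adjusted p = 3.48e-06). Of all genes 15.3% were called lower. No library of 14-day cells overlapped a control library in any of the 5 genes. Here too the share of all genes without such overlap was not counted. Scaling to the total count moved the median gene of this comparison by -0.10 on the log2 scale and the share of higher calls from 51.2% to 30.2%, and all 5 members were called lower under both scalings. Mki67, Top2a and Cdk1 had been higher than in control cells at day 0, so the order of 14-day and control cells in these 3 genes was opposite at the 2 days.

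The direct comparison at day 3 gave the same direction for all 5 genes between 14-day and 7-day cells. Cdk1 was 1.92-fold lower after 14 days (log2 difference -0.94, SE 0.08, adjusted p = 2.65e-11), Top2a 1.67-fold (-0.74, SE 0.07, adjusted p = 2.20e-10), Mki67 1.40-fold (-0.49, SE 0.08, adjusted p = 2.86e-05), Pcna 1.38-fold (-0.46, SE 0.08, adjusted p = 2.56e-05) and Ccnd1 1.19-fold (-0.25, SE 0.07, adjusted p = 0.00963). Of all genes 11.0% were called lower, and 51.2% of the calls were higher, or 22.1% with scaling to the total count. That scaling shifted the log2 difference of the median gene by -0.11. Ccnd1 did not pass when the second 7-day (-0.21) or the second 14-day library (-0.16) was left out. Calls over all genes went from 2988 to 1848 without the first 7-day and to 1700 without the first 14-day library.

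The change from day 0 to day 3 of induction, called the response, was then compared between treatments, as the difference between these changes. In 7-day cells the response of Top2a was more negative than in control cells by -0.93 on the log2 scale (SE 0.10, adjusted p = 4.40e-09), that of Cdk1 by -0.78 (SE 0.11, adjusted p = 2.09e-06), that of Mki67 by -0.74 (SE 0.11, adjusted p = 8.84e-06) and that of Pcna by -0.44 (SE 0.11, adjusted p = 0.00685). Ccnd1 went the other way, by 0.33 (SE 0.10, adjusted p = 0.0206), which is a smaller fall from a lower day 0 level. Each of these values is the 7-day minus control difference at day 3 less that at day 0. For Top2a, Cdk1, Mki67 and Pcna the day 0 differences were 0.82, 0.81, 0.59 and 0.38. Those at day 3 were -0.11, 0.04, -0.15 and -0.06. In these 4 genes the response difference is thus mostly the day 0 difference with its sign turned. Of all genes 5.68% were called with a more negative and 4.70% with a more positive response, so that 45.3% of the calls were positive, or 35.7% with scaling to the total count. The Pcna difference did not pass without the first control library at day 0 (-0.37), nor that of Ccnd1 without the second control library at day 0 (0.29), the first at day 3 (0.23) or the second 7-day library at day 3 (0.29).

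In 14-day cells the differences from the control response had the same signs. They were -1.31 for Cdk1 (SE 0.11, adjusted p = 1.39e-11), -1.13 for Top2a (SE 0.10, adjusted p = 1.90e-11), -0.93 for Mki67 (SE 0.11, adjusted p = 6.44e-08), -0.60 for Pcna (SE 0.11, adjusted p = 9.86e-05) and 0.41 for Ccnd1 (SE 0.10, adjusted p = 0.00168). Of all genes 10.9% were called more negative and 11.0% more positive, and 50.2% of the calls were positive, or 36.9% with scaling to the total count. Of all genes 3.54% had a more negative difference than Cdk1. The 2 sets of differences share the control libraries of both days. For Top2a and Cdk1 the response was a rise in control cells and a fall in both kinds of unloaded cells, whereas for Ccnd1 it was a fall in all 3. The Cdk1 rise in control cells was small (0.23) and did not pass without the second control library of either day.

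Between 14-day and 7-day cells the response differed past the threshold for Cdk1 only, by -0.53 (SE 0.11, adjusted p = 0.00111), where 4.44% of all genes were called more negative. The differences were -0.21 for Top2a (95% interval -0.40 to -0.01, adjusted p = 0.214), -0.19 for Mki67 (-0.42 to 0.04, adjusted p = 0.353), -0.16 for Pcna (-0.39 to 0.06, adjusted p = 0.434) and 0.08 for Ccnd1 (-0.12 to 0.28, adjusted p = 0.703). The Cdk1 call held under every alternative run. The calls over all genes went from 1134 to 672 without the first 7-day library at day 3, to 646 without the first 14-day library of that day and to 737 when the second 14-day library of day 0 was left out.

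**Figure D2:**
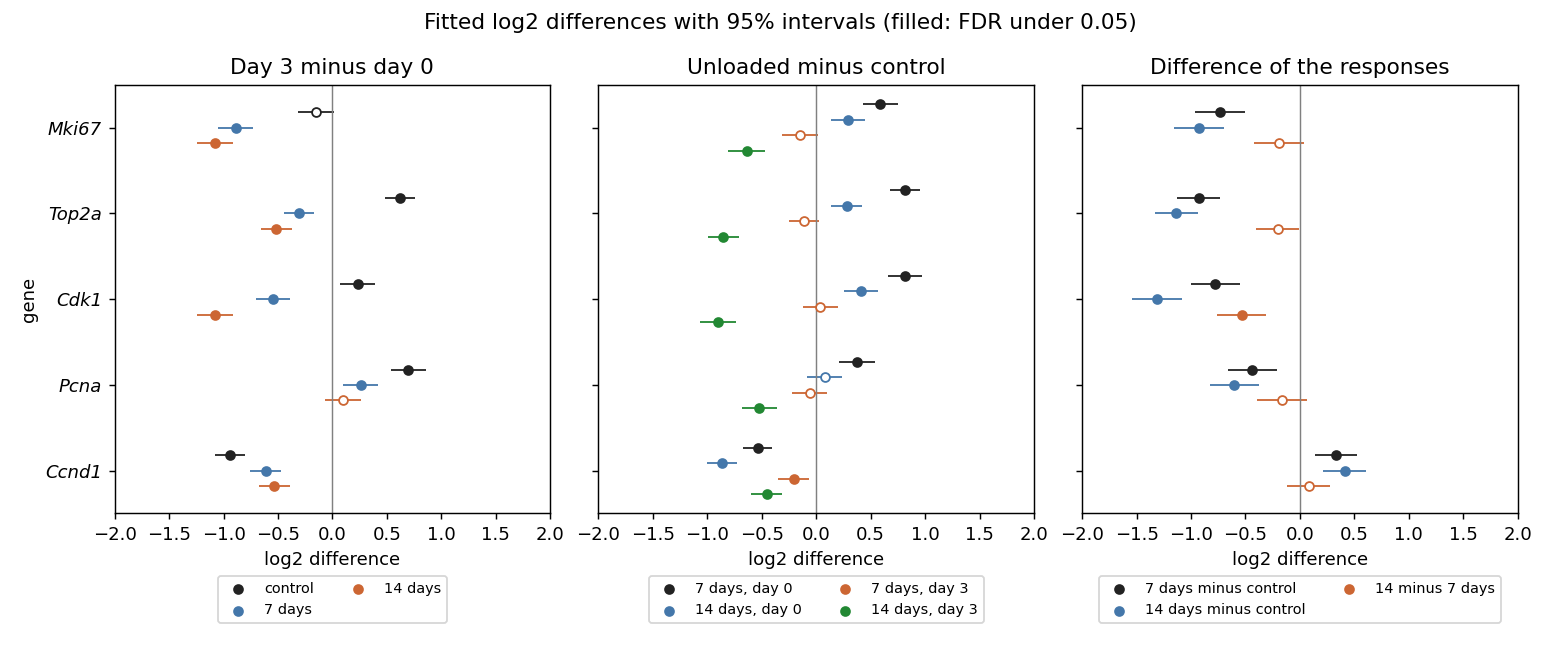
Fitted log2 differences (horizontal axis) with 95% intervals for the 5 genes (vertical axis), as day 3 minus day 0 in each treatment (left), unloaded minus control at each day (middle) and the difference of the responses (right); filled points passed the FDR threshold and open points did not. Top2a rises in control cells (0.62) and falls in 7-day (-0.31) and 14-day cells (-0.51), and Ccnd1 is on the side opposite to the other 4 genes in the responses of unloaded minus control cells.

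Ratios of 2 members within a library do not depend on the scaling of libraries, and they were compared between groups as a description. Per Mki67 count, Pcna had 0.747 and 0.892 counts in the control libraries at day 0 and 1.33 and 1.63 at day 3. The 7-day libraries had 0.774 and 0.641 at day 0 and 1.58 and 1.55 at day 3, and the 14-day libraries 0.655 and 0.754 at day 0 and 1.68 and 1.50 at day 3. Pcna thus had more counts per Mki67 count in each day 3 library than in any day 0 library, in control and unloaded cells alike. For Top2a per Mki67 the means were 1.19 ± 0.175 and 2.04 ± 0.231 in control cells at day 0 and day 3, 1.39 ± 0.155 and 2.08 ± 0.0429 in 7-day cells, and 1.18 ± 0.0576 and 1.74 ± 0.0795 in 14-day cells (SD, n = 2). Here too every day 3 library lay above every day 0 library.

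Cdk1 per Mki67 was not higher at day 3 in every treatment. It had means of 0.630 ± 0.00402 and 0.828 ± 0.114 in control cells at day 0 and day 3, 0.737 ± 0.0561 and 0.936 ± 0.0385 in 7-day cells, and 0.684 ± 0.000938 and 0.684 ± 0.0137 in 14-day cells (SD, n = 2). In 14-day cells the Cdk1 and Mki67 counts thus stood in the same ratio before and after induction. Ccnd1 per Mki67 was 2.81 ± 0.222 in control cells at day 0, against 1.29 ± 0.0733 in 7-day and 1.26 ± 0.0265 in 14-day cells. At day 3 it was 1.64 ± 0.381, 1.56 ± 0.121 and 1.84 ± 0.133 in the same order (SD, n = 2). The control cultures at day 0 therefore stood apart from all other groups in this ratio, and at day 3 the range of the control libraries overlapped those of both unloaded groups.

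**Figure D3:**
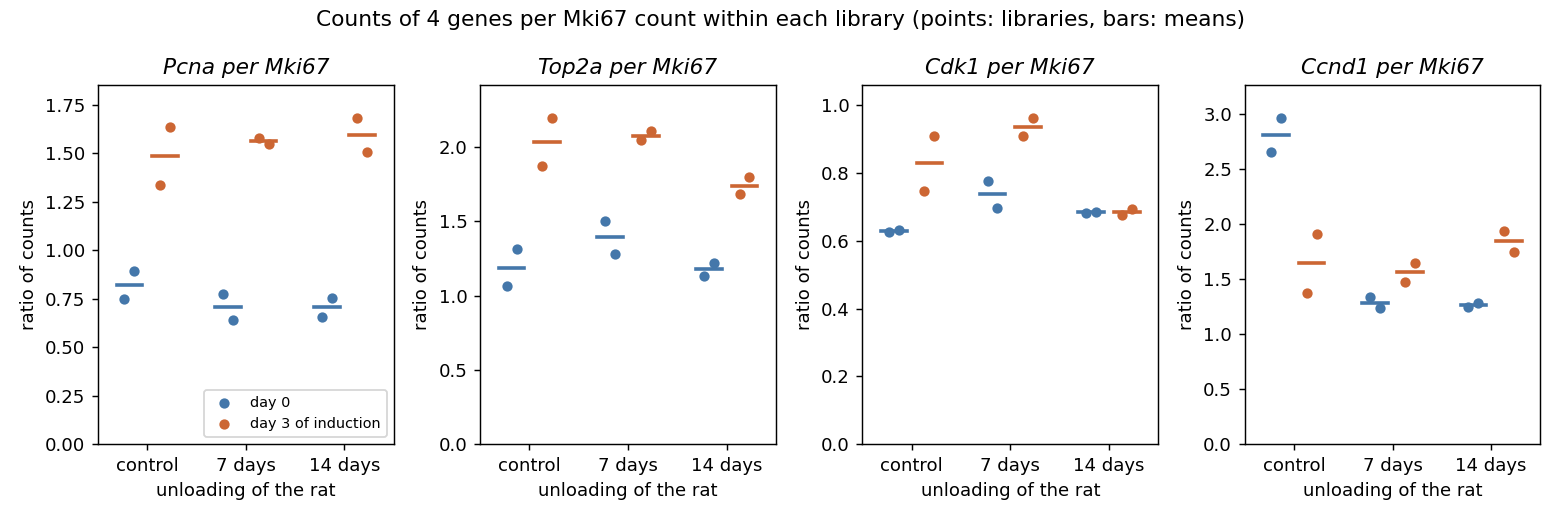
Counts of Pcna, Top2a, Cdk1 and Ccnd1 per count of Mki67 within each library (vertical axes, from 0) in control, 7-day and 14-day cells (horizontal axes), with a point per library, a bar for the mean of 2 libraries, day 0 in blue and day 3 in orange. Pcna per Mki67 lies between 0.641 and 0.892 in the day 0 libraries and between 1.33 and 1.68 in the day 3 libraries.

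The likeness of patterns was measured as the Pearson correlation of log2 CPM over the 12 libraries, which come from 6 groups and are not independent, and is given as a description. Mki67 and Cdk1 were most alike among the members (r = 0.90), followed by Top2a and Cdk1 (0.87). Pcna was nearest to Top2a (0.67), was at 0.27 with Cdk1 and at -0.11 with Mki67. Ccnd1 was at 0.59 with Mki67, 0.39 with Cdk1, 0.10 with Top2a and -0.39 with Pcna. Top2a was at 0.63 with Mki67. Among 13210 other tested genes, 149 were closer to Mki67 than Cdk1 was, and 62 were closer to Top2a than Cdk1 was. The other pairs ranked farther apart. To Mki67, 2749 genes were closer than Top2a was, 3098 closer than Ccnd1 and 7203 closer than Pcna. Such a count depends on the gene it is taken from. To Top2a, 615 genes were closer than Mki67 was, 488 closer than Pcna and 4974 closer than Ccnd1.

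The nearest gene outside the 5 reached r = 0.985 for Mki67, 0.987 for Cdk1, 0.967 for Top2a, 0.964 for Pcna and 0.986 for Ccnd1, and 0.993, 0.993, 0.976, 0.977 and 0.994 over the 6 group means. Nearest to Mki67 was ENSRNOG00000014080, with 33.2 ± 2.62 CPM in control, 56.8 ± 0.850 in 7-day and 42.5 ± 3.10 in 14-day cells at day 0, and 29.6 ± 1.50, 26.0 ± 2.03 and 13.7 ± 0.744 at day 3 (SD, n = 2). Nearest to Top2a was ENSRNOG00000005290, which spanned a smaller range, from 421 ± 3.04 CPM in 14-day cells at day 3 to 520.0 ± 12.8 in control cells at day 3 (SD, n = 2). Nearest to Pcna was ENSRNOG00000005074, with 14.3 ± 1.11 and 22.8 ± 0.327 CPM in control cells at day 0 and day 3, and 15.4 ± 1.08 and 15.4 ± 1.78 in 14-day cells. Nearest to Ccnd1 was ENSRNOG00000047213, with 103 ± 0.682 CPM in control cells at day 0, the highest group, and 56.5 ± 0.686 in 14-day cells at day 3, the lowest. The files do not pair these identifiers with names.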

How the data were processed

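The samples were 12 poly(A) RNA libraries of rat soleus fibro-adipogenic progenitors. The deposited table holds raw counts made by the authors for 32622 Ensembl rat gene identifiers. Per the submitters' processing notes, the build was Rnor_6.0 and the tools included STAR 2.7, featureCounts 1.6.4, FastQC 0.11.9 and DESeq2, with no roles given. The strand setting, the annotation release and the counting of read pairs are not stated. Even numbers made up 68.3% to 70.6% of the counts between 1 and 20. All tests were therefore repeated on counts divided by 2 and rounded up to whole numbers. Total counts per library were 15105521 to 21484885, and TMM factors 0.942 to 1.05.

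Genes were filtered with filterByExpr of edgeR (4.0.16, R 4.3.3), which left 13215 genes, all 5 members included. The quasi-likelihood test of edgeR was fitted to 6 group means in all 12 libraries with 6 residual degrees of freedom, for 12 two-sided comparisons. P-values were adjusted over all tested genes (Benjamini-Hochberg, FDR 0.05). All adjusted p-values in the text are from this edgeR test. Standard errors and 95% intervals come from the same fit. The test also draws on the spread of all genes, so p-values and intervals rest on more than these 6 degrees of freedom. The procedure was tested on simulated data. Levels are CPM on TMM-scaled libraries. DESeq2 1.42.0, other scalings and filters, a replicate block and leaving out each library were alternatives.

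The members and lists were chosen with earlier results of these data known. No table used here pairs the identifiers with names (0 of 32622 matched). The selection rule supplies the names of the 5 members, and the fixed lists of other cell cycle genes and of cell type markers were not used. The rule for other genes was to take, for each member, the 2 tested genes with the highest Pearson correlation of log2 CPM (prior count 2) over the 12 libraries. The 4 identifiers printed are the nearest to Mki67, Top2a, Pcna and Ccnd1.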

Additional observations from a re-analysis of the deposited data

Results flagged for a closer look

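The response (day 3 of induction minus day 0) was compared between treatments. These results stand here because the difference between treatments passed the interaction test of edgeR. For 7-day cells the log2 difference of the changes was -0.74 for Mki67, -0.93 for Top2a, -0.78 for Cdk1, -0.44 for Pcna and 0.33 for Ccnd1. For 14-day cells it was -0.93 for Mki67, -1.13 for Top2a, -1.31 for Cdk1, -0.60 for Pcna and 0.41 for Ccnd1. Between 14-day and 7-day cells the difference passed for Cdk1, at -0.53. Both differences from control cells use the same 4 control libraries. Mki67, Top2a, Cdk1 and Pcna differed between 7-day and control cells at day 0 and did not pass at day 3. Their 7-day values here thus mostly restate the day 0 differences. The causes were not tested. No group had more than 2 libraries, so single libraries were not tested for standing apart.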

How the results depend on the processing

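Each of the 60 member results (5 genes in 12 comparisons) was recomputed under 8 settings that kept all libraries of the comparison and under 12 that left out 1 library. No result changed sign under any of them. Of the 480 values with no library left out, 477 kept their side of the threshold, and the 3 that lost it were all the lower Ccnd1 of 7-day cells at day 3. The number of members called in that comparison was 1 and went to 0 with scaling to the total count, with the replicate block and with DESeq2. It ranged from 0 to 1 when 1 library was left out. Of the 720 values with 1 library left out, 699 kept their call, 20 lost it and 1 (Mki67 in control cells) gained it. Most of the 720 left out a library outside the comparison, which hardly moves the value and says little about stability. All the changed calls came from leaving out a library of the comparison itself. The RLE scaling, the filter settings, the halved counts and fits of only the groups compared changed no call of a member. The replicate numbers do not pair the libraries by any label, and the deviations of same-numbered libraries from their group means correlated at -0.0508 to 0.0411 over the 15 pairs of groups. With the replicate block 1786 genes were called between 7-day and control cells at day 3, against 1874 without it. It changed no other call of a member. Over all genes, the 1550 calls between 14 and 7 days at day 0 went to 862 and 887 without the first and the second 14-day library. The 2988 calls at day 3 went to 1848 without the first 7-day and to 1700 without the first 14-day library of that day. The 1134 differences between the 14-day and 7-day responses went to 672 without the first 7-day library of day 3, to 646 without the first 14-day library of that day and to 737 without the second 14-day library of day 0. Member counts were 504 to 3778 per library. At 504 counts the counting error alone is 4.45% if each count is a separate fragment, and more if read pairs were counted as 2. The fit had what edgeR calls a biological coefficient of variation of 5.66%, and that scatter may be technical only.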
